A study of Mus musculus with 9 samples.

Results

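The insulin-like growth factor (IGF) axis was followed through 10 genes: the ligands Igf1 and Igf2, the receptors Igf1r and Igf2r, and the binding proteins Igfbp2, Igfbp3, Igfbp4, Igfbp5, Igfbp6 and Igfbp7. They were taken by gene name from an RNA sequencing table of 54532 genes, which holds each of the 10. Levels are given as FPKM, the fragments per kilobase of gene length scaled to the size of the library, so levels of different genes can be set side by side. Of the 10 genes, 9 averaged at least 0.5 FPKM over all libraries and entered the tests, among 13477 tested genes in all. Igfbp2 stayed below that level and is described by its values only.

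The libraries came from the right ventricular myocardium of wild type C57BL/6 mouse pups, placed by the labels at postnatal day 7. CsA libraries (n = 3) came from pups that had fistula surgery and an injection of cyclosporin A, a drug that binds cyclophilins and blocks the phosphatase calcineurin. VO libraries (n = 3) came from pups that had fistula surgery, the model of volume overload, without the drug. Sham libraries (n = 3) came from sham operated pups. The vessels joined, the dose of the drug, the use of a vehicle and the time between surgery and harvest are not given in the sources used here. Whether the 3 libraries of a group are 3 separate mice is not stated in the labels, and p-values therefore reflect no more than a spread between samples that may be technical.

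IGF-I and IGF-II act through the receptor tyrosine kinase IGF1R, which recruits insulin receptor substrates and switches on the PI3K-AKT-mTOR and ERK cascades. IGF2R, also the cation-independent mannose 6-phosphate receptor, has no kinase and carries IGF-II to lysosomes for breakdown. The binding proteins hold the ligands outside the cell, and proteases that cut them set the ligands free. In the rodent heart Igf2, an imprinted gene expressed from the paternal copy, is a ligand of fetal and early postnatal growth, while Igf1 is the ligand of postnatal growth and is driven in the liver by growth hormone.

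Several libraries stood apart in ways the groups do not explain. Libraries held 12046288 to 15986747 fragments assigned to genes. VO 3 had 11.0% of its fragments in mitochondrially encoded genes and 17003 genes above 0, and the other 8 libraries 22.2% to 26.3% and 19619 to 20479 genes. Hbb-bs, an adult hemoglobin chain, was at 1304 FPKM in VO 3 but between 391 and 593 FPKM in the rest. Myl7, the atrial myosin light chain, stood at 13.2, 0.959 and 68.3 FPKM in CsA 1 to 3, at 6.06, 3.02 and 4.62 FPKM in VO 1 to 3, and at 235, 1.10 and 269.7 FPKM in Sham 1 to 3. Sham 2 had 18.6 FPKM of the Y-linked gene Ddx3y and 0.00401 FPKM of the X-inactivation transcript Xist. The remaining 8 libraries had 0 FPKM of Ddx3y and 10.2 to 66.3 FPKM of Xist, so the sexes were not balanced over the groups. All 8 ventricular cardiomyocyte markers were above 1 FPKM in all 9 libraries.

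Igfbp7 had the highest level of the 10 genes in all 9 libraries, Igfbp4 and Igfbp5 ranked between 2 and 4, and Igf1r, Igf2 and Igfbp2 were at ranks 8, 9 and 10 in all 9. Igf2r ranked between 3 and 6, within the range of ranks of Igfbp3 and Igfbp6, and Igf1 at 6 or 7. Mean levels were lowest in VO for 8 of the 9 tested genes and highest in Sham, with CsA between. Igf1 was the exception, with its highest mean in VO and its lowest in Sham. The share of all tested genes with the order of the other members was not counted. CsA and VO means were close for Igfbp6 (15.8 and 15.3 FPKM) and for Igf1r (3.16 and 3.05 FPKM). In bulk tissue, fewer cells of a type and less RNA per cell cannot be told apart.

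**Figure D1:**
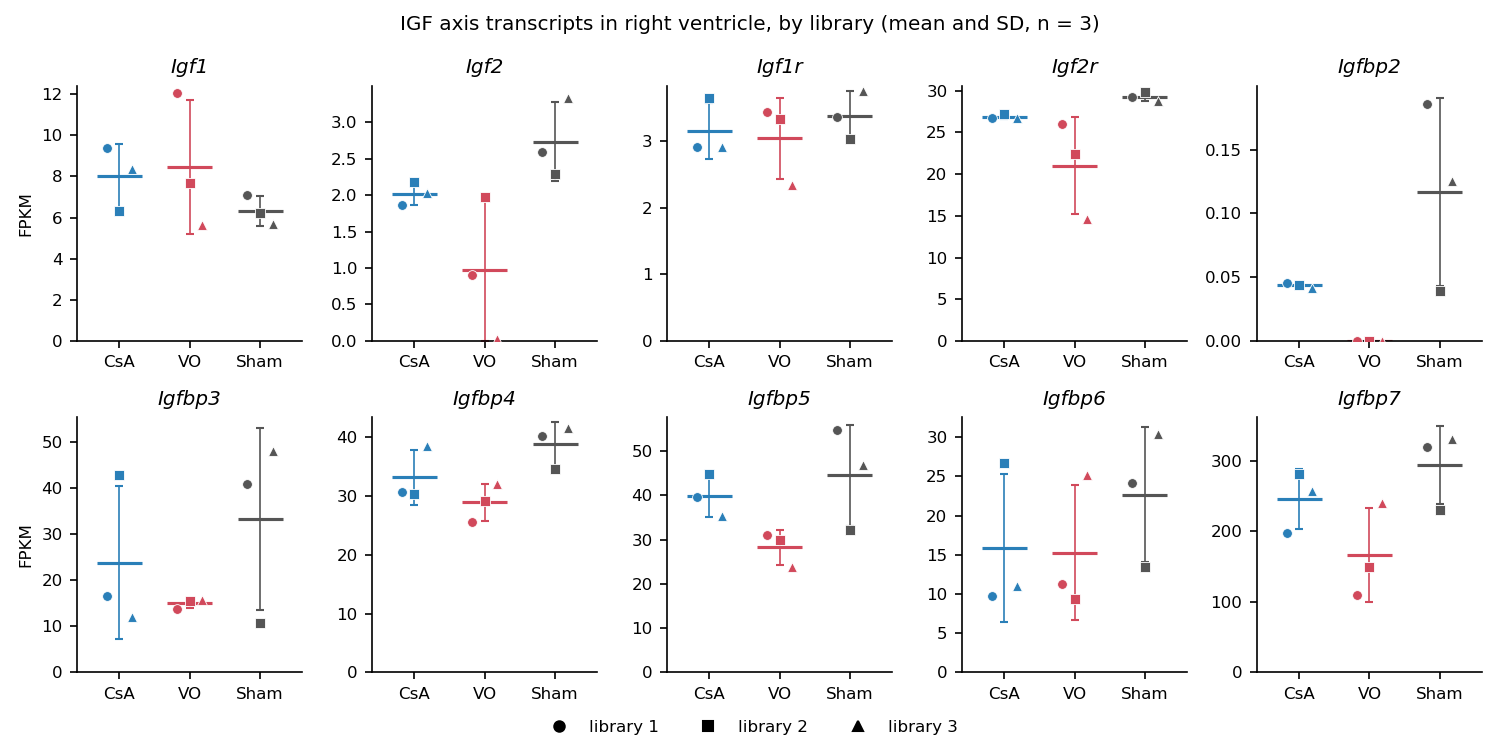
FPKM of the 10 IGF axis genes in each library (points, with a marker shape per library number), with the group mean (line) and SD (bar, n = 3), for CsA, VO and Sham. Igf2 lies near 0 in VO 3, and Igfbp2 is at 0 in all VO libraries. Igf2r, Igfbp4 and Igfbp5 lie lower in all VO than in all Sham libraries. Igfbp3 and Igfbp6 split within CsA and within Sham, and Igfbp6 also within VO.

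Of the ligands, Igf1 (ENSMUSG00000020053, chr10:87858265-87937042 in GRCm38, plus strand) stood at 9.40, 6.33 and 8.38 FPKM in CsA 1 to 3, at 12.1, 7.70 and 5.63 FPKM in VO 1 to 3 and at 7.12, 6.22 and 5.68 FPKM in Sham 1 to 3. VO 1 was the highest library of all and VO 3 the lowest, so the VO group spanned both other groups. Igf2 (ENSMUSG00000048583, chr7:142650766-142666816, minus strand) stood at 1.86, 2.18 and 2.02 FPKM in CsA, at 0.910, 1.98 and 0.0304 FPKM in VO and at 2.59, 2.29 and 3.33 FPKM in Sham. All 3 Sham libraries lay above all CsA and VO libraries. VO 3 held 3 Igf2 fragments (95% Poisson interval 0.619 to 8.77, counting error only), where the other libraries held 83 to 247.

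Of the receptors, Igf1r (ENSMUSG00000005533, chr7:67952827-68233668, plus strand), the signalling receptor for both ligands, stood at 2.92, 3.65 and 2.92 FPKM in CsA, at 3.45, 3.34 and 2.35 FPKM in VO and at 3.36, 3.04 and 3.76 FPKM in Sham. The groups overlapped. On the log2(FPKM + 1) scale the range of Igf1r over the 9 libraries was 0.51, wider than in 14.5% of tested genes. This scale narrows the range of low genes, and the highest Igf1r FPKM was 1.60 times the lowest. Igf2r (ENSMUSG00000023830, chr17:12682406-12769664, minus strand), the IGF-II scavenger, stood at 26.7, 27.2 and 26.7 FPKM in CsA, at 26.0, 22.4 and 14.6 FPKM in VO and at 29.3, 29.8 and 28.8 FPKM in Sham. The 3 groups did not overlap, and the spread within CsA and within Sham was small beside that within VO. Igf2r shares genome sequence with the antisense transcript Airn, which held 156 to 308 fragments against 2343 to 3979 for Igf2r, and the strand setting of the counting step is not stated in the labels or the table.

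Of the binding proteins, Igfbp7 (ENSMUSG00000036256, chr5:77349240-77408041, minus strand), which binds IGFs weakly and is made by blood vessel endothelium, stood at 198, 281 and 258 FPKM in CsA, at 109, 149.5 and 239.9 FPKM in VO and at 319, 231 and 332 FPKM in Sham. VO 3 lay above Sham 2, so the VO and Sham groups overlapped. The end of Igfbp7 overlaps Polr2b on the opposite strand, which held 702 to 927 fragments against 2101 to 5631 for Igfbp7. Igfbp5 (ENSMUSG00000026185, chr1:72857932-72874884, minus strand), a binding protein that attaches to the extracellular matrix, stood at 39.6, 44.9 and 35.3 FPKM in CsA, at 31.1, 29.96 and 23.8 FPKM in VO and at 54.7, 32.1 and 46.8 FPKM in Sham. All VO libraries lay below all CsA and all Sham libraries, by a narrow margin at Sham 2.

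Igfbp4 (ENSMUSG00000017493, chr11:99041244-99054392, plus strand), an inhibitory binding protein cut by the protease Pappa, stood at 30.7, 30.3 and 38.5 FPKM in CsA, at 25.5, 29.2 and 31.9 FPKM in VO and at 40.2, 34.6 and 41.6 FPKM in Sham. All VO libraries lay below all Sham libraries, and CsA overlapped both. Igfbp3 (ENSMUSG00000020427, chr11:7206086-7213923, minus strand), the main carrier of IGFs in blood, stood at 16.7, 42.9 and 12.0 FPKM in CsA, at 13.8, 15.5 and 15.8 FPKM in VO and at 40.9, 10.8 and 48.2 FPKM in Sham. Igfbp6 (ENSMUSG00000023046, chr15:102144362-102149511, plus strand), which prefers IGF-II, stood at 9.80, 26.8 and 11.0 FPKM in CsA, at 11.3, 9.41 and 25.1 FPKM in VO and at 24.2, 13.4 and 30.4 FPKM in Sham. Both split within CsA and within Sham into high and low libraries, and Igfbp6 also split within VO. Igfbp2 (ENSMUSG00000039323, chr1:72824503-72852474, plus strand), a neighbour of Igfbp5 on chromosome 1, had 1 fragment in each CsA library, 0 in each VO library, and 5, 1 and 3 fragments in Sham 1 to 3. A count of 0 allows up to 3 fragments when only an upper limit is set. Summed over a group these were 3 fragments in CsA (two-sided 95% Poisson interval 0.619 to 8.77), 0 in VO (0 to 3.69) and 9 in Sham (4.12 to 17.1), counting error only. VO did not overlap with Sham, CsA did, and Igfbp2 was not tested.

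Sequence upstream of the start was compared for the 5 members whose log2 fold change in VO against Sham had an unadjusted p under 0.05, to show what the promoters of these genes share. The windows are the 250 bases before a RefSeq start (GRCm38.p6), read in the direction of the gene, 5′ to 3′. Capitals mark the motifs searched on both strands: the TATA box TATAAA, the GC box GGGCGG, the CCAAT box, the E-box CACGTG and the forkhead core GTAAACA.
Igf2, chr7:142657497-142657746, minus strand: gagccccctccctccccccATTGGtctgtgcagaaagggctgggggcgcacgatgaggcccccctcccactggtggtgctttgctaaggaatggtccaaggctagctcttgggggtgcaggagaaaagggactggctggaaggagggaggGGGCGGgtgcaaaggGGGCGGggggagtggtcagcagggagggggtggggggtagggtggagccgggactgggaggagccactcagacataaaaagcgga
Igf2r, chr17:12769707-12769956, minus strand: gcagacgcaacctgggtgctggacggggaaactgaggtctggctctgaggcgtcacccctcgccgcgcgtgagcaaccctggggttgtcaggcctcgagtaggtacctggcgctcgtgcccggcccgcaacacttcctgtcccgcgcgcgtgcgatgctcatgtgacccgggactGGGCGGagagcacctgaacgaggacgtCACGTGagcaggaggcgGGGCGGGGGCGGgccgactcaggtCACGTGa
Igfbp4, chr11:99040994-99041243, plus strand: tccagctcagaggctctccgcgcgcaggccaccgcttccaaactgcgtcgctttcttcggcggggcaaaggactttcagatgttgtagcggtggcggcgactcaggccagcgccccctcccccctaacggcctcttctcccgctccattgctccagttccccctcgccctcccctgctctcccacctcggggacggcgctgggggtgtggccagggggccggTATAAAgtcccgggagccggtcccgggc
Igfbp5, chr1:72874866-72875115, minus strand: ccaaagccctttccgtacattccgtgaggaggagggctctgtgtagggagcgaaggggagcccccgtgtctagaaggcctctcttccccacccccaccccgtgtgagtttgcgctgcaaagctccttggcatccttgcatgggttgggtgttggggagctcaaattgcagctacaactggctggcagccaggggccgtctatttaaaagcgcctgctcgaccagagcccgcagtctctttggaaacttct
Igfbp7, chr5:77408046-77408295, minus strand: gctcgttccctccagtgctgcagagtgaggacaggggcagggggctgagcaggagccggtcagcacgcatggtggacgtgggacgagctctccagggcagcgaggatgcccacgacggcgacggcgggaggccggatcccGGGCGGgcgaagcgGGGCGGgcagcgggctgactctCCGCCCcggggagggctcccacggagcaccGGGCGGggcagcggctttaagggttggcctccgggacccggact

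Igf2 has 4 RefSeq starts, of which the one farthest downstream is shown. The windows of the other 3 had a GC content of 68.8%, 47.6% and 50.8%, and the last 2 of these held none of the motifs. Igfbp7 and Igf2r held the most GC boxes of these, 4 and 3, and Igf2r also had 2 E-boxes close to its start. Igfbp4 had a TATA box that begins 28 bases before its start, and the Igfbp5 window held none of the 5 motifs. Of the 14 windows of all 10 genes, 6 held a GC box, 3 a CCAAT box, 2 a TATA box, 2 an E-box and 0 the forkhead core. Among 32851 RefSeq windows of the same length, 32.7% held a GC box, 33.8% a CCAAT box, 12.4% a TATA box, 6.02% an E-box and 3.17% the forkhead core. The 5 windows shown had a GC content of 66.0% (Igf2), 69.2% (Igf2r and Igfbp4), 58.8% (Igfbp5) and 74.0% (Igfbp7), against a median of 52.4% over all windows. High values were not particular to these 5 genes. The other members were at 77.6% (Igf1r), 73.2% (Igfbp3), 67.2% and 56.4% (Igfbp2), 52.8% (Igf1) and 49.6% (Igfbp6). A match is a run of letters in this window and does not show that a factor binds there.

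VO was compared with Sham to ask which members of the axis differ after fistula surgery. Levels of Igf2, Igf2r, Igfbp4 and Igfbp5 were below every Sham library in all 3 VO libraries, and Igfbp7 had the second largest fitted difference. None of the 9 tested members passed the test that adjusts over all tested genes, where 4.76% of the 13477 genes passed (642, of which 275 were higher and 367 lower in VO). Against that background 0 of 9 does not set the members apart. At an unadjusted p under 0.05 there were 5 of 9 members, all lower in VO, beside 29.3% of all tested genes in either direction and 15.3% lower. Groups did not overlap, with VO lower, for 4 of 9 tested members, beside 17.0% of tested genes. The median log2 fold change was -0.59 over the 9 members and 0.0028 over all tested genes. These backgrounds take in genes of every GC content and were not matched to the members. Fold changes moved with GC content, as given below.

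Among the ligands, Igf2 averaged 0.973 ± 0.975 FPKM in VO and 2.73 ± 0.537 FPKM in Sham (mean ± SD, n = 3 each), with the log2 fold change at -1.04 ± 0.318 (SE; limma adjusted p = 0.0738). Its size rests on VO 3: without that library the log2 fold change was -0.64 ± 0.201 (adjusted p = 0.0615), and without VO 2 it was -1.40 ± 0.256 and passed (adjusted p = 0.0338), where the adjusted p ranged from 0.0338 to 0.975 over 25 alternatives. The value also moved with the scale, to -2.11 with a pseudocount of 0.1 and to -2.84 with voom on recovered fragments. Igf1 averaged 8.46 ± 3.28 FPKM in VO and 6.34 ± 0.729 FPKM in Sham, with the log2 fold change at 0.31 ± 0.241 (adjusted p = 0.412) that was 0.54 ± 0.210 without VO 3 and -0.056 after correction for GC content. The ratio of Igf1 to Igf2 FPKM was 13.2, 3.89 and 185 in VO 1 to 3, against 2.75, 2.72 and 1.71 in Sham 1 to 3. All VO ratios lay above all Sham ratios, with the highest set by the 3 Igf2 fragments of VO 3. The CsA ratios, 2.91 to 5.05, also lay above all Sham ratios. The ratio was not corrected for GC content, which is 38.0% for Igf1 and 55.8% for Igf2. With GC correction and without VO 3, the log2 fold changes were 0.055 for Igf1 and -0.29 for Igf2.

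Among the receptors, Igf2r averaged 21.02 ± 5.85 FPKM in VO and 29.3 ± 0.498 FPKM in Sham, with the log2 fold change at -0.50 ± 0.195 (limma adjusted p = 0.128). Without VO 3 it was -0.27 ± 0.109 (adjusted p = 0.111). Igf1r averaged 3.05 ± 0.609 FPKM in VO and 3.39 ± 0.364 FPKM in Sham, with a log2 fold change of -0.13 ± 0.155 (adjusted p = 0.624; 95% interval -0.47 to 0.22). This interval includes no change and a fall or rise of modest size, and without VO 3 the sign turned (0.0059). The ratio of Igf2r to Igf1r FPKM was 7.55, 6.71 and 6.22 in VO and 8.71, 9.82 and 7.66 in Sham. The groups did not overlap in this ratio of transcripts, by a narrow margin between VO 1 and Sham 3.

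Among the binding proteins, Igfbp7 averaged 166 ± 67.0 FPKM in VO and 294 ± 55.0 FPKM in Sham, with the log2 fold change at -0.88 ± 0.298 (limma adjusted p = 0.0967). It passed without VO 3 (-1.18 ± 0.227, adjusted p = 0.0330), after quantile normalization (-0.87, adjusted p = 0.0364) and with library weights (-1.13, adjusted p = 0.0446), and its adjusted p ranged from 0.0330 to 0.975 over 25 alternatives. Summed levels of 8 endothelial markers, all above 1 FPKM in every library, moved in the same direction. They ran from 246 to 336 FPKM in VO and from 345 to 386 FPKM in Sham. On the mean of log2(FPKM + 1) over these markers the groups overlapped, with VO 3 at 5.203 and Sham 2 at 5.196. The part of these markers in the Igfbp7 difference was not tested. Within VO both Igfbp7 and the endothelial sum were lowest in VO 1 and highest in VO 3, but single markers did not all follow: Cdh5 was at 57.7, 74.0 and 53.7 FPKM in VO 1 to 3 and Pecam1 at 46.3, 51.4 and 48.6 FPKM.

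Igfbp5 averaged 28.3 ± 3.92 FPKM in VO and 44.6 ± 11.5 FPKM in Sham (log2 fold change -0.61 ± 0.213, limma adjusted p = 0.0999), and Igfbp4 averaged 28.9 ± 3.20 FPKM in VO and 38.8 ± 3.71 FPKM in Sham (-0.41 ± 0.161, adjusted p = 0.128). Summed smooth muscle and pericyte markers, of which 6 of 8 were above 1 FPKM in every library and none was at 0, ran from 561 to 727 FPKM in VO and from 738 to 1046 FPKM in Sham, and the 8 fibroblast markers, none at 0, from 1013 to 1119 FPKM in VO and from 786 to 969 FPKM in Sham. Single fibroblast markers did not all follow the sum. Col1a1 was at 88.7, 131 and 68.9 FPKM in VO 1 to 3 and at 179, 121 and 150 FPKM in Sham 1 to 3. Dcn was at 220, 169 and 323 FPKM in VO and at 148, 118 and 177 FPKM in Sham. The part of either cell type in these values was not tested. Igfbp3 (log2 fold change -0.86 ± 0.554, adjusted p = 0.329) and Igfbp6 (-0.59 ± 0.455, adjusted p = 0.418) had the widest errors of the members, and for both Sham 2 was low where Sham 1 and Sham 3 were high. Without Sham 2, Igfbp3 was at -1.503 and Igfbp6 at -0.91, and no member passed. Without VO 3, Igfbp6 was at -0.99.

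**Figure D2:**
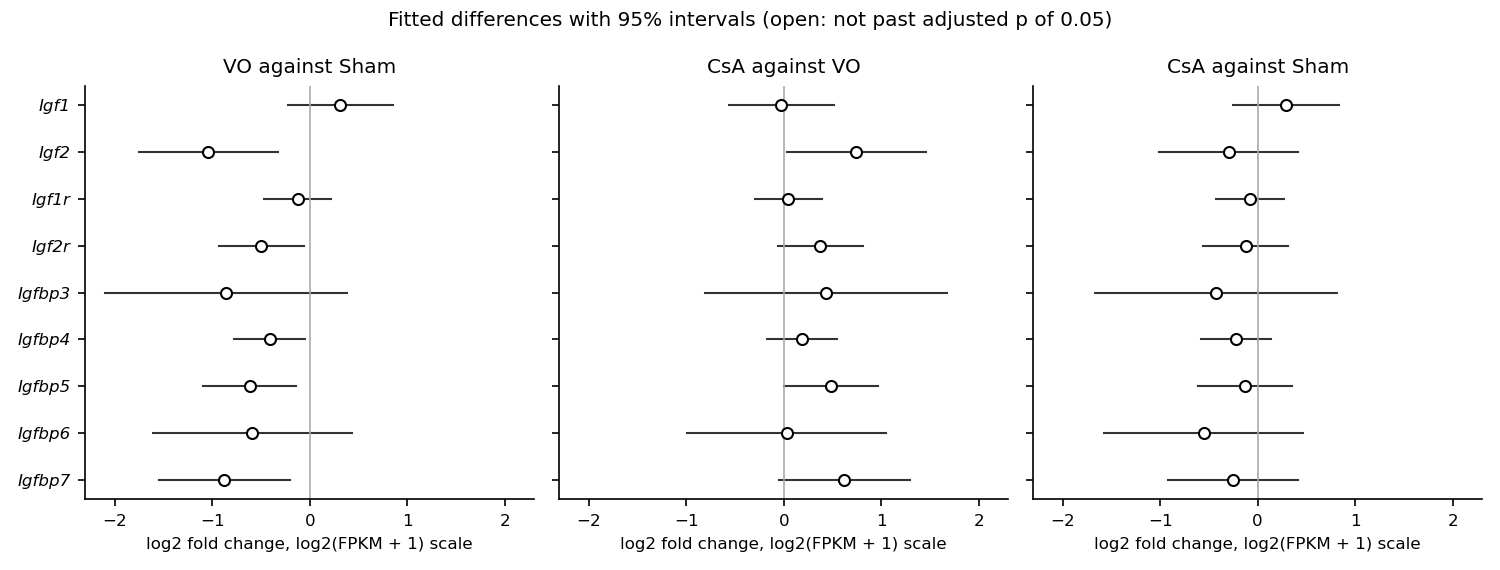
Fitted log2 fold changes on the log2(FPKM + 1) scale with 95% intervals for the 9 tested members in VO against Sham, CsA against VO and CsA against Sham. All points are open, since none passed an adjusted p of 0.05, and in VO against Sham the intervals of Igf2, Igf2r, Igfbp4, Igfbp5 and Igfbp7 lie below 0.

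GC content moved with the fold changes in VO against Sham. Over all tested genes, the median log2 fold change was 0.35 in the tenth of genes with the lowest GC content and -0.44 in the tenth with the highest. Igf1, whose longest transcript has 38.0% GC, sat in the lowest group, and Igfbp7 (58.8%) and Igfbp6 (60.7%) in the highest, while the median over tested genes was 49.4%. Of the 10 groups by rising GC content, Igf2 was in group 9 (median -0.28) and Igfbp4 in group 8 (-0.19). Igfbp3 was in group 7 (-0.11), Igf2r and Igfbp5 in group 6 (-0.047) and Igf1r in group 5 (0.050). After each library was corrected for its GC trend, the log2 fold change was -0.78 for Igf2, -0.49 for Igfbp7, -0.58 for Igfbp5, -0.42 for Igf2r and -0.18 for Igfbp4, at adjusted p of 0.179 to 0.455. Igfbp3 was then at -0.73 and Igfbp6 at -0.12, where Igfbp6 had been at -0.59. Igfbp5 and Igf2r, with GC near the median, moved little. All 9 members were then below 0, with a median of -0.42, and 0 of the 13477 genes passed. With the correction and without VO 3, Igf2 was at -0.29, Igfbp7 at -0.71, Igfbp5 at -0.42 and Igf2r at -0.14. In that setting 7 of the 9 members were below 0, with a median of -0.29, and Igf1 (0.055) and Igf1r (0.030) were above 0.

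**Figure D3:**
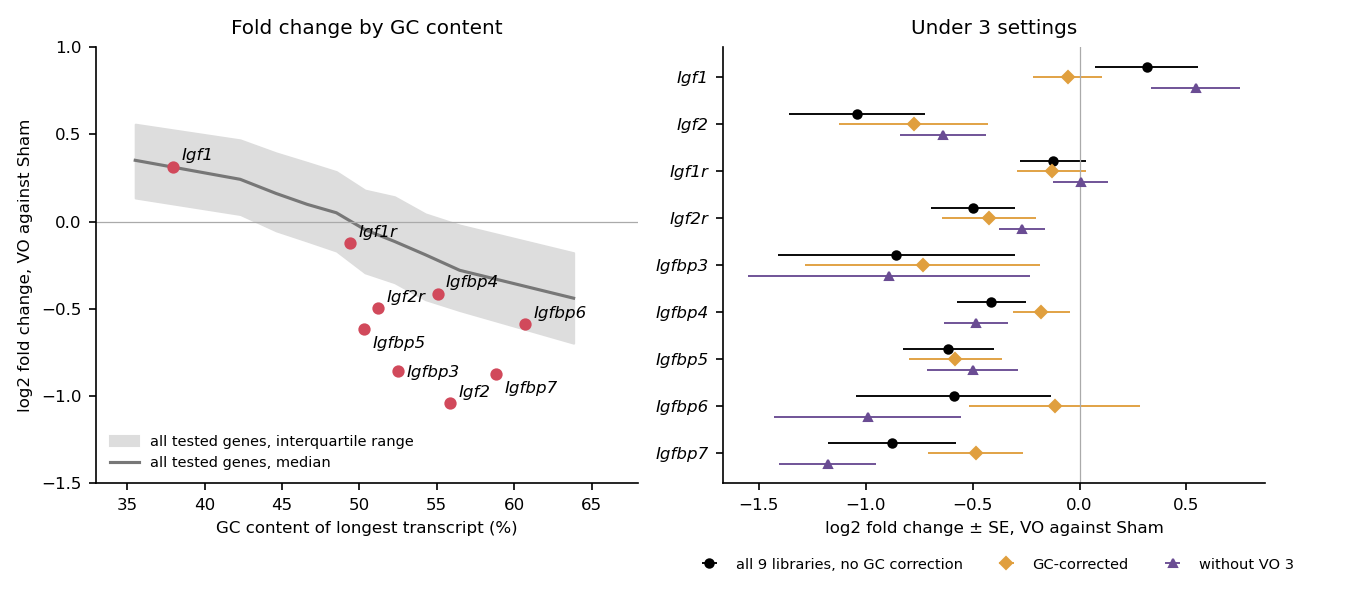
Left, log2 fold change in VO against Sham by GC content of the longest transcript, with the 9 members as points over the median (line) and interquartile range (band) of all tested genes. Right, log2 fold change ± SE of each member with all 9 libraries, after GC correction and without VO 3: Igf1 sits on the GC trend and Igfbp7 moves toward 0 with the correction, to -0.49, while Igfbp5 is at -0.61 before it and -0.58 after it.

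Summed over Igfbp2 to Igfbp7, binding protein levels were 295, 425 and 354 FPKM in CsA 1 to 3. They were 191, 234 and 337 FPKM in VO 1 to 3 and 479, 322 and 499 FPKM in Sham 1 to 3. Igfbp2 added at most 0.186 FPKM to a sum. VO 1 and VO 2 had the lowest sums of all libraries, and VO 3 lay above Sham 2. Igfbp7 made up 57.2% to 72.7% of the sum in the 9 libraries, Igfbp5 7.07% to 16.3% and Igfbp4 7.12% to 13.4%. In VO 1 the share of Igfbp7 was the lowest and that of Igfbp5 and Igfbp4 the highest. The sum of both ligands was 8.51 to 11.3 FPKM in CsA, 5.66 to 12.97 FPKM in VO and 8.50 to 9.71 FPKM in Sham, so binding protein transcripts exceeded ligand transcripts 14.7- to 59.4-fold, both ends of that range being VO libraries (VO 1 and VO 3).

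**Figure D4:**
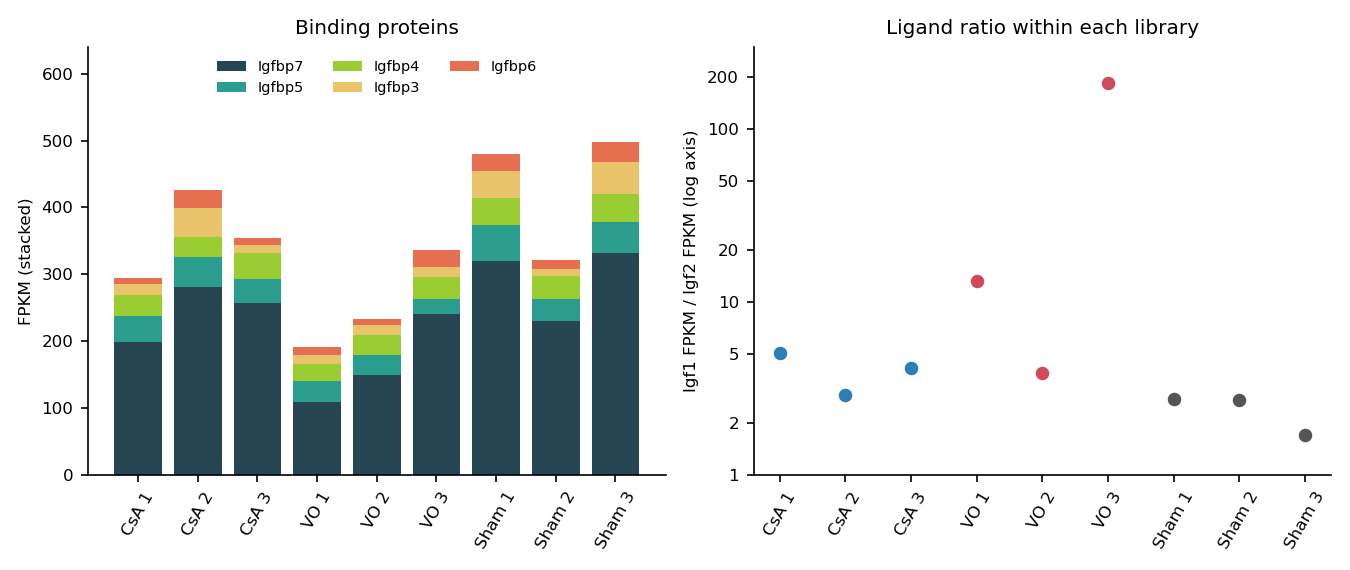
Left, stacked FPKM of Igfbp7, Igfbp5, Igfbp4, Igfbp3 and Igfbp6 in each library. Right, ratio of Igf1 to Igf2 FPKM in each library on a log axis: the CsA libraries lie at 2.91 to 5.05, the VO libraries at 3.89 to 185 and the Sham libraries at 1.71 to 2.75.

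CsA was compared with VO to ask what differed with the drug after the same surgery. Igf2r and Igfbp5 were higher in every CsA library than in every VO library, and Igf2 had the largest fitted difference of the members. None of the 9 members passed, and neither did any other tested gene in limma (0% called), where 2219 genes, 16.5%, had an unadjusted p under 0.05 and the smallest adjusted p was 0.122. An unadjusted p under 0.05 was found for 2 of 9 members, both higher in CsA, beside 8.64% of genes higher, and no overlap with CsA higher for 2 of 9, beside 10.9%. The median log2 fold change was 0.38 over the members and -0.0013 over all tested genes, and the members' median was 0.25 without CsA 2 and 0.079 with GC correction and without VO 3. CsA against VO and VO against Sham share the VO libraries, and CsA against Sham shares a group with each, so the values of the comparisons are not independent.

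Igf2 averaged 2.02 ± 0.158 FPKM in CsA and 0.973 ± 0.975 FPKM in VO (SD, n = 3 each), with the log2 fold change at 0.74 ± 0.318 (SE; limma adjusted p = 0.289) that was 0.34 ± 0.201 without VO 3. VO 2, at 1.98 FPKM, lay within the CsA range of 1.86 to 2.18 FPKM. Igf2r averaged 26.9 ± 0.257 FPKM in CsA and 21.02 ± 5.85 FPKM in VO, with the log2 fold change at 0.38 ± 0.195 (adjusted p = 0.355), and 0.15 ± 0.109 without VO 3. Igf1 averaged 8.03 ± 1.56 FPKM in CsA and 8.46 ± 3.28 FPKM in VO, and its log2 fold change of -0.03 had a 95% interval of -0.56 to 0.51.

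Igfbp5 averaged 39.9 ± 4.82 FPKM in CsA and 28.3 ± 3.92 FPKM in VO, with the log2 fold change at 0.49 ± 0.213 (limma adjusted p = 0.299) that was 0.46 after the GC correction and 0.37 without VO 3. Igfbp7 averaged 246 ± 42.5 FPKM in CsA and 166 ± 67.0 FPKM in VO, with the log2 fold change at 0.62 ± 0.298 (adjusted p = 0.328), which was 0.92 ± 0.227 without VO 3 and 0.39 after the GC correction. The endothelial marker sum was 351 to 413 FPKM in CsA and 246 to 336 FPKM in VO, and its part in the Igfbp7 value was not tested. Igfbp4 was at a log2 fold change of 0.19 ± 0.161 (adjusted p = 0.570), Igfbp3 at 0.43 ± 0.554, Igfbp6 at 0.03 ± 0.455 and Igf1r at 0.05 ± 0.155. Of these, Igfbp3, Igfbp6 and Igf1r turned sign when CsA 2 was left out (-0.081, -0.40 and -0.035).

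CsA was compared with Sham to ask how the treated pups stood beside sham operated ones. The largest fitted differences were those of Igfbp6, at -0.55 ± 0.455, and Igfbp3, at -0.43 ± 0.554 on the log2 scale, and both rest on which libraries were high. None of the 9 members passed in limma or had an unadjusted p under 0.05, beside 0% and 1.48% of all tested genes (200 genes). Igf2 and Igf2r were lower in every CsA library than in every Sham library, beside 4.94% of genes. Igf2 averaged 2.02 ± 0.158 FPKM in CsA and 2.73 ± 0.537 FPKM in Sham, with the log2 fold change at -0.30 ± 0.318 (95% interval -1.01 to 0.41), and Igf2r 26.9 ± 0.257 and 29.3 ± 0.498 FPKM, with the log2 fold change at -0.12 ± 0.195 (-0.56 to 0.32). For Igfbp7 the log2 fold change was -0.26 (-0.92 to 0.41), for Igf1 0.29 (-0.25 to 0.83), for Igfbp4 -0.22 (-0.59 to 0.14), for Igfbp5 -0.13 (-0.61 to 0.35) and for Igf1r -0.08 (-0.42 to 0.27). The median over the members was -0.22, and 0.0013 over all tested genes. The members' median was -0.13 without CsA 1, -0.12 without CsA 3, -0.13 without Sham 3, -0.34 without Sham 2 and -0.12 after GC correction.

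Igfbp3 and Igfbp6 varied between libraries more than between groups. On the log2(FPKM + 1) scale, the range over the 9 libraries was 2.05 for Igfbp3, wider than in 95.5% of tested genes, and 1.59 for Igfbp6, against a median of 0.86 over tested genes. Igfbp3 was high in CsA 2, Sham 1 and Sham 3, and Igfbp6 in the same 3 libraries and in VO 3. The atrial marker Myl7 was also high in Sham 1 and Sham 3, but among CsA libraries it was lowest in CsA 2, the one high in Igfbp3. The summed atrial markers ran from 12.0 to 169 FPKM in CsA, from 17.3 to 29.1 FPKM in VO and from 13.1 to 639 FPKM in Sham, with 2 of 8 above 1 FPKM in every library and with Bmp10, Sln and Fgf12 at 0 in at least 1 library. Their part in these values was not tested. With the libraries high in Myl7 (CsA 3, Sham 1 and Sham 3) left out, Sham 2 is the lone Sham library, and it was the lowest Sham library for both genes. The log2 fold changes in VO against Sham were then 0.44 for Igfbp3 and 0.056 for Igfbp6, values that the choice of libraries itself shifts upward.

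**Figure D5:**
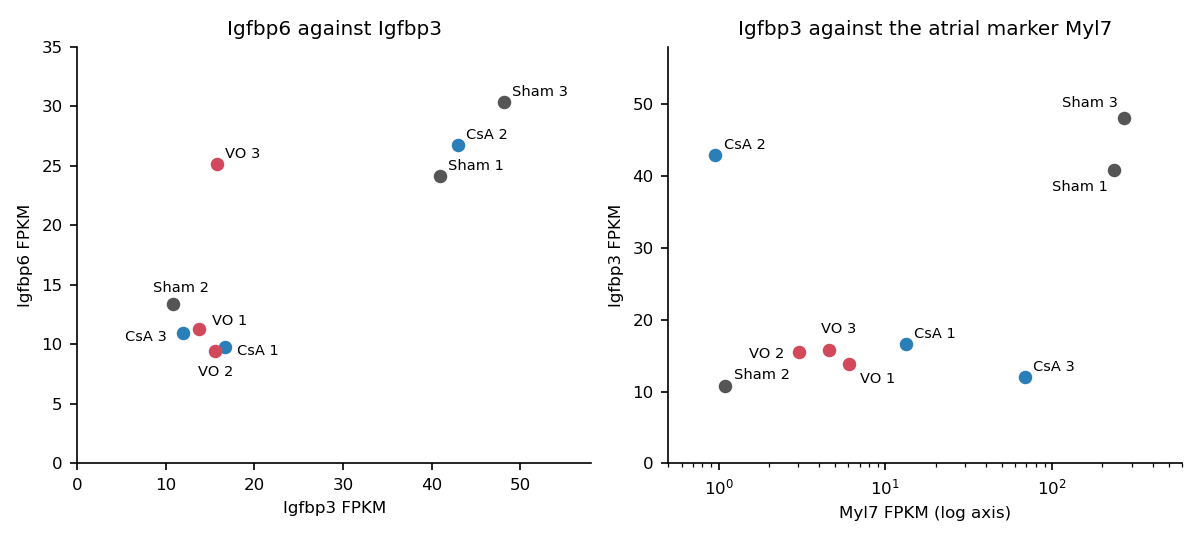
Left, Igfbp6 against Igfbp3 FPKM in the 9 libraries. Right, Igfbp3 FPKM against the atrial marker Myl7 (log axis): Sham 1, Sham 3 and CsA 2 are high in Igfbp3, and CsA 2 is low in Myl7 at 0.959 FPKM.

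Genes downstream and around the axis were read from 6 lists with 91 tested genes. In VO against Sham 2 of them rose and 4 fell, beside 2.04% of all tested genes higher and 2.72% lower. By list, in the order below, 14 of 35, 6 of 15, 2 of 8, 4 of 9, 3 of 15 and 2 of 9 genes had an unadjusted limma p under 0.05. The share over all tested genes was 29.3%. In CsA against VO and in CsA against Sham 0 passed in limma.

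In the list of receptor substrates and the PI3K-AKT-mTOR and ERK cascade, 1 of 35 tested genes rose, 1 fell and 33 did not pass, with a median log2 fold change of -0.19 against 0.0028 over all tested genes. Rheb, the small GTPase that switches on mTORC1, rose to 24.5 ± 6.21 FPKM in VO, against 12.0 ± 0.485 FPKM in Sham (log2 fold change 0.94 ± 0.181, limma adjusted p = 0.0389). Mapk3, the kinase ERK1, fell to 12.8 ± 3.08 FPKM in VO, against 30.2 ± 1.84 FPKM in Sham (-1.21 ± 0.213, adjusted p = 0.0382). Tsc2, which restrains Rheb, was at -0.51 (adjusted p = 0.0511), and Pik3r2, a regulatory subunit of PI3K, at -0.93 (adjusted p = 0.0536). In CsA against VO these were at -0.74 for Rheb, 1.02 for Mapk3, 0.40 for Tsc2 and 0.72 for Pik3r2, at adjusted p of 0.204 to 0.231.

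Among the proteases that cut binding proteins and their regulators, 1 of 15 tested genes fell and 14 did not pass, with a median of -0.28. Furin, the proprotein convertase that matures IGF1R and many other precursors, fell to 4.88 ± 0.989 FPKM in VO, against 13.9 ± 3.29 FPKM in Sham (log2 fold change -1.32 ± 0.247, limma adjusted p = 0.0382). The lysosomal protease Ctsd was at -1.09 (adjusted p = 0.0517), the membrane metalloprotease Mmp14 at -0.64 (0.0715) and the urokinase gene Plau at 0.79 (0.0511). Pappa, the protease of Igfbp4, was below the level tested, at 0.0898 to 0.513 FPKM in CsA, 0.205 to 0.239 FPKM in VO and 0.202 to 0.308 FPKM in Sham.

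Of the genes tied to Igf2 by imprinting or RNA binding, 0 of 8 tested passed in limma, with a median of 0.04. An unadjusted limma p under 0.05 was found for 2 of the 8, beside 29.3% of all tested genes. H19, the imprinted noncoding RNA next to Igf2, averaged 40.2 ± 5.45 FPKM in VO and 66.2 ± 10.8 FPKM in Sham, and the libraries did not overlap (log2 fold change -0.70 ± 0.177, adjusted p = 0.0511). H19 averaged 58.6 ± 5.21 FPKM in CsA, above all VO libraries (log2 fold change against VO 0.54 ± 0.177, adjusted p = 0.226). Ctcf, which binds the control region between both genes, was at 0.37 (adjusted p = 0.0879) in VO against Sham, the imprinting factor Zfp57 at 0.28 (0.350) and the RNA-binding protein gene Igf2bp2 at 0.0066 (0.984).

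In the growth hormone receptor pathway, 1 of 9 tested genes fell and 8 did not pass, with a median of -0.35. Sh2b1, an adaptor of JAK2, fell to 6.26 ± 1.42 FPKM in VO, against 11.9 ± 0.413 FPKM in Sham (log2 fold change -0.84 ± 0.179, limma adjusted p = 0.0408). The transcription factors Stat5a (-0.35) and Stat5b (-0.38) and the feedback inhibitor Socs3 (-0.50) had adjusted p of 0.105 to 0.126. After the GC correction they were at 0.00020 for Stat5a, -0.24 for Stat5b and -0.11 for Socs3. The receptor Ghr averaged 19.2 ± 1.17 FPKM in CsA, 19.7 ± 4.28 FPKM in VO and 17.97 ± 1.14 FPKM in Sham.

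Among FoxO targets, genes that FoxO factors switch on when AKT is inactive, 0 of 15 passed in limma, with a median of -0.10. An unadjusted limma p under 0.05 was found for 3 of the 15, beside 29.3% of all tested genes. Fbxo32, the muscle ubiquitin ligase atrogin-1, was at -0.96 (limma adjusted p = 0.0535), the repressor Bcl6 at -0.89 (0.0511), Klf15 at -0.95 (0.119) and the sestrin Sesn1 at -0.51 (0.330). Of the other genes related to binding proteins, 1 of 9 rose and 1 fell, with a median of -0.0083. Esm1, a proteoglycan of endothelial tip cells, rose to 1.72 ± 0.187 FPKM in VO, against 0.592 ± 0.250 FPKM in Sham (log2 fold change 0.78 ± 0.185, adjusted p = 0.0456). Lrp1, an endocytic receptor, fell to 5.99 ± 1.996 FPKM in VO, against 16.3 ± 4.83 FPKM in Sham (-1.31 ± 0.304, adjusted p = 0.0451). Cyr61, a matrix protein with an IGF-binding domain, was at -0.23 and Tmem219 at -0.05. After the GC correction 0 genes passed, and the 6 genes of these lists that had passed were at 0.77 for Rheb, -0.87 for Mapk3, -1.06 for Furin, -0.40 for Sh2b1, 0.57 for Esm1 and -0.97 for Lrp1, at adjusted p of 0.0658 to 0.214. Of the other genes named, Pik3r2 was then at -0.43, Tsc2 at -0.29, H19 at -0.44 and Zfp57 at 0.14.

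The genes with levels most like those of the ligands were named by Pearson's r on log2(FPKM + 1) over the 9 libraries, among protein-coding genes averaging at least 5 FPKM. For Igf1 these were Map4k5 (r = 0.95), Esco1 (0.94) and Thoc2 (0.94), of 5897 genes compared, 29 of which had an r over 0.9. Without CsA 1 and VO 1, the libraries farthest from the median of Igf1, the r was 0.79 to 0.86. For Igf2 they were Nfic (r = 0.99), Sbf1 (0.99) and Ski (0.98), with 189 of 5898 genes over 0.9, and without VO 1 and VO 3 the r was 0.93, 0.95 and 0.79. Like Igf2, Nfic was lowest in VO 3, at 10.2 FPKM, and highest in Sham 3, at 32.1 FPKM. These values are a description over libraries that share groups and depth.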

How the data were processed

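Fragments per gene had been turned by the authors into FPKM, and this table was used as deposited. Per the submitters' processing notes, the tools were featureCounts 1.5.0-p3, HISAT2 2.0.5, GATK 3.7, StringTie 1.3.3b and DESeq2 1.20.0, with no roles stated, and the builds GRCm38 and mm10. The release of the annotation is not stated. Gene coordinates and gene lengths are those of the deposited table. Libraries were made with a NEBNext Ultra kit from 1 µg of Trizol-extracted RNA, per the labels' protocols.

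FPKM is not a count, so log2(FPKM + 1) was fitted with limma 3.58.1 in R 4.3.3, with a mean-variance trend and all 9 libraries in 1 model. Genes needed a mean of at least 0.5 FPKM, tests were two-sided, and Benjamini-Hochberg adjustment ran over all 13477 tested genes within a comparison, with a threshold of 0.05. This scale understates the change of low genes. Multiplied by gene length, 100% of values came within 0.1 of whole multiples of 1 fragment per library, which gave the fragment counts printed here. Intervals on them cover counting error only, as PCR copies are not independent molecules. No 2 libraries of a group agreed within sampling noise (chi-square per degree of freedom at least 11.5). GC content came from the longest GENCODE M21 transcript, and the GC correction removed a loess trend (span 0.3, degree 1) from each library. Steps were tested on simulated data. For the fit, these had the same dispersion for all genes, no GC trend and no outlying library. That test checks the steps and does not cover these features of the real libraries.

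The members, gene lists, tests and most alternatives were chosen with earlier results of these data known. Named genes are the 10 members, up to 4 genes per list with the smallest unadjusted p in any comparison, and the 3 genes most like Igf1 and Igf2. Genes named only for their level (Pappa, Ghr and those in the closing section) were chosen after their values were seen. Promoter windows are from RefSeq, where all 10 symbols matched. Figures were drawn with matplotlib 3.10.9.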

Additional observations from a re-analysis of the deposited data

How the results depend on the processing

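Each comparison was recomputed under 25 alternatives. Of the fold changes of the 9 members under these, 215 in VO against Sham, 207 in CsA against VO and 219 in CsA against Sham kept their direction and their side of the threshold, 6, 18 and 6 turned sign, and 4 in VO against Sham newly passed. In VO against Sham the 642 genes past the test became 0 with no filter on low values, 0 after GC correction, 0 with only the 2 groups compared, 3 without Sham 1, Sham 3 and CsA 3, and 1010 with voom on recovered fragments, an alternative chosen after seeing the data. Leaving out 1 library gave 0 (without CsA 1, CsA 3, Sham 3 or VO 1) to 2032 genes (without VO 3, with 637 of the 642 among them), with 1 without Sham 1 and 69 without Sham 2, and GC correction without VO 3, also chosen after seeing the data, gave 1. Rescaling without mitochondrially encoded genes gave 214 genes higher and 541 lower, against 275 and 367. The causes were not tested.

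The 0 members past the test in VO against Sham became 1 (Igfbp7) with quantile normalization and with library weights, and 0 to 1 on leaving out a library (Igf2 without VO 2, Igfbp7 without VO 3). In CsA against VO the count of genes was 0 to 1 on leaving out a library (1 without VO 3), and 1 with GC correction without VO 3. In CsA against Sham it was 3 without Sham 1, Sham 3 and CsA 3, and 0 to 3 on leaving out a library (1 without Sham 1, 3 without Sham 2).

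These members turned sign. In VO against Sham, Igf1 was at -0.056 after GC correction, Igfbp3 at 0.44 and Igfbp6 at 0.056 without Sham 1, Sham 3 and CsA 3, and Igf1r at 0.030 with GC correction without VO 3, and between -0.20 and 0.0059 on leaving out a library. In CsA against VO, Igf1 was at 0.073 when rescaled without mitochondrially encoded genes, at 0.19 after GC correction and at 0.079 with that correction without VO 3, and between -0.25 and 0.24 on leaving out a library. Igfbp6 was at -0.26 after GC correction and -0.080 with voom, and between -0.40 and 0.44 on leaving out a library. Igf1r was at -0.073 with library weights, -0.029 with voom and -0.11 with GC correction without VO 3, and between -0.084 and 0.12 on leaving out a library, where Igfbp3 lay between -0.081 and 0.80. In CsA against Sham, without Sham 1, Sham 3 and CsA 3, Igf1r was at 0.080, Igfbp3 at 1.23, Igfbp5 at 0.38, Igfbp6 at 0.27 and Igfbp7 at 0.032. That setting leaves Sham 2 alone, assumed to vary like the other groups, and Sham 2 was the lowest Sham library for all of these, so the choice of libraries itself shifts them upward and the turned signs are no test. Igfbp5 lay between -0.34 and 0.033 on leaving out a library.

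The labels number the libraries of each group 1 to 3 and do not say what the number stands for. Deviations of same-numbered libraries from their group means had correlations of -0.40 to 0.24 over the 3 comparisons. With 3 libraries a group, these values cannot decide whether same-numbered libraries share more than a number. With that number as a replicate block, 1 gene passed in VO against Sham, and with GC correction and the replicate block 0 did, where Igf1 was again at -0.056. In CsA against VO that setting gave Igf1 at 0.19 and Igfbp6 at -0.26. The planned edgeR and DESeq2 fits of recovered fragments were not run, and voom took their place. Of the 30 mean levels per group, 29 moved by less than 1 SD on rescaling without mitochondrially encoded genes, and Igf2r in CsA moved to 27.8 FPKM.

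Depth limits Igfbp2, with at most 5 fragments in a library, and Igf2 in VO 3, with 3. With 3 libraries a group, an exact test of a single value cannot go below p = 0.1, so none was run.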

Other observations

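Some genes that act on the axis were measured but not named in the comparisons above. Insr and Airn were among the tested genes of the lists. Igfbp1, the binding protein that insulin represses in liver, was listed at 0 in all 9 libraries, and Igfals, the blood carrier subunit made in liver, stood at 0.433 to 0.516 FPKM in CsA, 0.119 to 0.992 FPKM in VO and 0.273 to 0.617 FPKM in Sham. The insulin receptor gene Insr averaged 12.6 ± 1.90 FPKM in CsA, 13.7 ± 3.96 FPKM in VO and 13.9 ± 0.888 FPKM in Sham (mean ± SD, n = 3 each), above Igf1r in every group. The fetal RNA-binding protein genes Igf2bp1 and Igf2bp3 were low, at no more than 0.0629 and 0.467 FPKM in CsA, 0.130 and 0.580 FPKM in VO and 0.112 and 0.388 FPKM in Sham. Airn, the antisense RNA that silences the paternal Igf2r copy, averaged 3.96 ± 0.830 FPKM in CsA, 4.05 ± 1.34 FPKM in VO and 3.67 ± 0.217 FPKM in Sham. Pappa2, another protease of binding proteins, reached at most 0.155 FPKM in CsA, 0.219 FPKM in VO and 0.0932 FPKM in Sham.

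Igfbp3 and Igfbp6, the members that split within CsA and within Sham, had close partners across the 9 libraries. They are given here with no test and were chosen after their values were seen. Igfbp3 was most like Ptpn11 (r = 0.97), Timp2 (0.96) and Lyve1 (0.96), and Igfbp6 most like Asb11 (0.98), Gja4 (0.97) and Herpud1 (0.96). Ptpn11, a phosphatase of receptor tyrosine kinase signalling, stood at 36.1, 60.1 and 27.8 FPKM in CsA 1 to 3, at 34.2, 32.2 and 39.6 FPKM in VO 1 to 3 and at 61.0, 31.9 and 61.0 FPKM in Sham 1 to 3, high in the same 3 libraries as Igfbp3. Lyve1, a hyaluronan receptor of lymphatic endothelium and some macrophages, had 14.8 FPKM in CsA 2, 15.4 FPKM in Sham 1 and 14.6 FPKM in Sham 3, with 5.35 to 9.70 FPKM in the remaining libraries.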
